A study of Mus musculus with 8 samples.

Results

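The interferon response genes described here are a list of 41 genes, of which 40 were measured among 22180 tested genes of sorted lung mesenchymal cells. A gene was taken where a row of the deposited table was annotated with that gene alone, and the brightest such row by mean over all 8 arrays was used. Dtx3l was not analysed here, because its row names a neighbouring gene too. Of the 40 genes, 38 had a single row, and Irf8 and Ifi35 had 2. No filter on low values was applied, so all 40 entered the test.

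The cells came from C57BL/6J mice 11 weeks of age, kept under specific pathogen-free conditions. Control mice received PBS and the others bleomycin, an antibiotic that breaks DNA and wounds lung tissue, through the trachea. On day 10 the cells negative for CD45, CD31 and EpCAM, the surface markers of leukocytes, endothelium and epithelium, were sorted, and their total RNA was profiled on 4 control and 4 bleomycin arrays. The labels name no transgene, no allele and no dose of bleomycin, and they do not say whether replicates came from separate animals, so the p-values measure only the spread between these samples. C57BL/6 mice are known to carry defective Mx alleles, which limits what Mx transcripts mean for antiviral function in this strain.

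Interferons are cytokines that warn cells of infection. Type I interferons bind the receptor of Ifnar1 and Ifnar2, and interferon gamma binds the receptor that Ifngr1 forms with Ifngr2. Janus kinases then activate STAT proteins. Type I interferons act mainly through the interferon-stimulated response element (ISRE), and interferon gamma through the gamma-activated sequence (GAS). The genes so induced encode effectors that block viral replication, sensors of foreign nucleic acid, and regulators that amplify or end the response. Fibroblasts are known to respond to both kinds of interferon.

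Of the 40 genes, 18 rose and 3 fell in the bleomycin samples (limma with Benjamini-Hochberg adjustment over all tested genes, threshold 0.05), beside 9.12% of all tested genes that rose and 8.24% that fell. Zbp1, a sensor of left-handed nucleic acid that can trigger cell death, rose most, by 2.22 ± 0.14 (log2 difference ± SE, as in all differences below). It was followed by the effectors Ifit1 and Rsad2, the ubiquitin-like modifier Isg15 and the transcription factor Irf7. These 5 genes rose by over 2-fold, as did 1.98% of all tested genes. The 3 genes that fell were Samhd1, Irf1 and Ifngr1. The median log2 difference of the 40 genes was 0.28, beside 0.03 over all tested genes, and their differences ran from -0.68 to 2.22. The bleomycin values lay wholly above the control values for 19 genes and wholly below for 5, beside 12.5% and 11.0% of all tested genes.

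**Figure D1:**
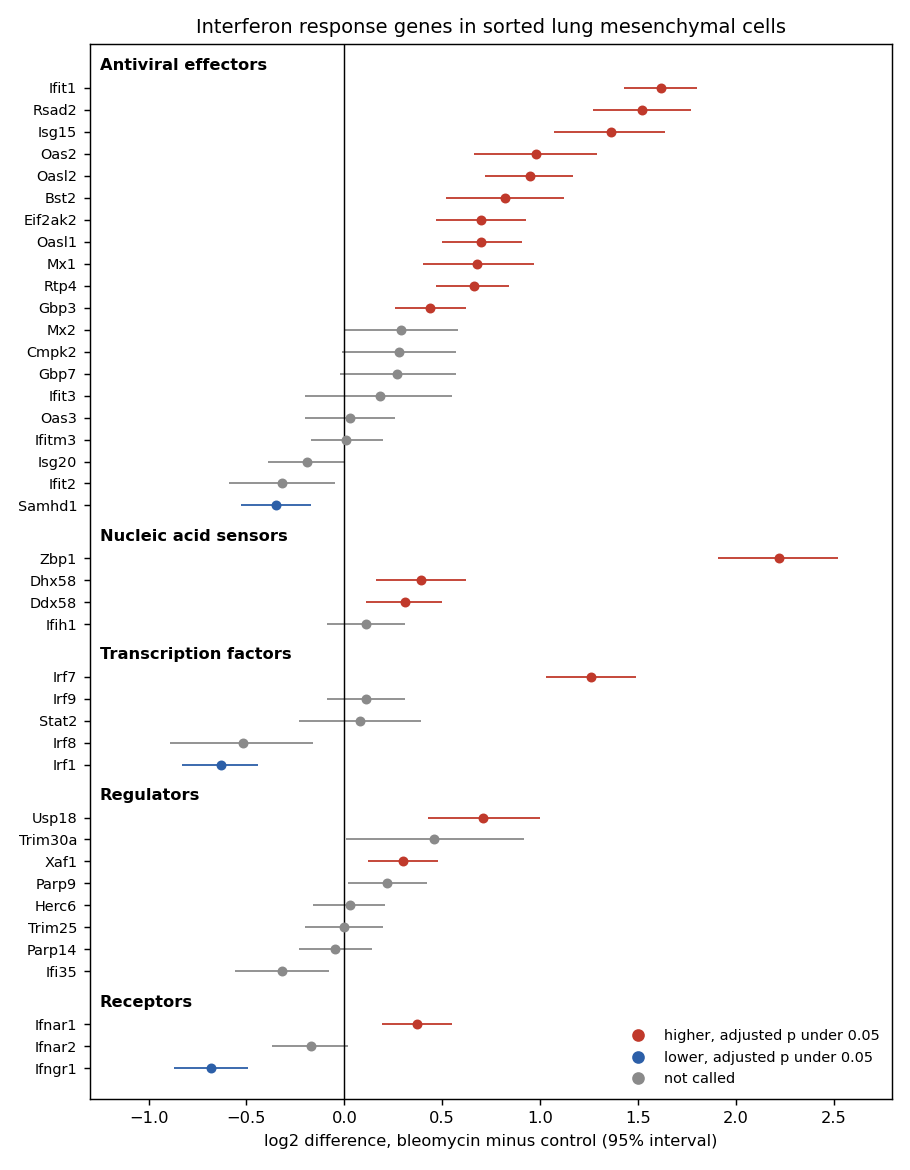
Log2 difference between the bleomycin and control arrays for each of the 40 genes, with its 95% interval, grouped by role and coloured by call (4 arrays per group). Zbp1 stands at 2.22, while the transcription factors run from -0.63 for Irf1 to 1.26 for Irf7 and the receptors from -0.68 for Ifngr1 to 0.37 for Ifnar1.

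The antiviral effectors were the role with the most genes. Of 20 effectors 11 rose and 1 fell, beside 9.12% and 8.24% of all tested genes. Their median log2 difference was 0.55. The IFIT proteins, which bind viral RNA and hold back its translation, are encoded side by side on chromosome 19. Of the 3 such genes among the effectors only Ifit1 passed. Ifit1 read 6.53, 6.70, 6.71 and 6.56 (log2 intensity) on control replicates 1 to 4 and 8.25, 8.26, 8.30 and 8.15 on bleomycin replicates 1 to 4. The groups were far apart and each was tight, and Ifit1 rose by 1.62 ± 0.085, or 3.06-fold (adjusted p = 3.44e-06). Ifit2 read 7.21, 6.71, 6.87 and 7.02 in the controls and 6.44, 6.75, 6.65 and 6.69 after bleomycin. Its groups overlapped through control replicate 2 and its difference of -0.32 ± 0.12 did not pass (adjusted p = 0.103). Ifit3 read 6.06, 5.73, 6.49 and 6.17 in the controls and 6.23, 6.65, 6.19 and 6.06 after bleomycin, with groups that overlapped and a difference of 0.18 ± 0.17 (95% interval -0.20 to 0.55). The difference Ifit1 minus Ifit2, taken within each array, was higher by 1.93 on the bleomycin arrays, and Ifit1 minus Ifit3 by 1.44, with no overlap between the groups in either. The sign of such a difference within a group has no meaning, since levels of different probes cannot be compared. These differences were chosen with the values known and carry no test. Ifit1 and Ifit3 have close copies in the mouse genome, and signal may be shared between copies. The related genes Ifit1bl1, Ifit1bl2 and Ifit3b, measured outside the list, differed by 0.33, -0.19 and 0.28, and none passed. Control means of Ifit1bl1 and Ifit3b, at 3.28 and 3.76, were below the control medians of rows with no annotated gene, 4.44 to 4.52.

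The sequences before the transcript starts of Ifit1, Ifit2 and Ifit3 are shown because their values diverge. Each runs 5′ to 3′ on the strand of its gene over the 170 bases before the annotated start (RefSeq, GRCm38.p6, plus strand for all 3). Capitals mark the ISRE letters, GAAA, any 2 bases and GAAA in a row, or their reverse complement.
Ifit1, chr19:34640719-34640888: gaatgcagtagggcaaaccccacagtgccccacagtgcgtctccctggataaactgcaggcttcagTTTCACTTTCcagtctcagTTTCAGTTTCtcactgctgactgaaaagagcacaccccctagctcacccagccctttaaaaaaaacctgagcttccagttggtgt
Ifit2, chr19:34550524-34550693: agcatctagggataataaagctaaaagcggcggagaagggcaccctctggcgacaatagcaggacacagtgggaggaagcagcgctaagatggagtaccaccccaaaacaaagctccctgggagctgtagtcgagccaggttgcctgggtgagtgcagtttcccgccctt
Ifit3, chr19:34583359-34583528: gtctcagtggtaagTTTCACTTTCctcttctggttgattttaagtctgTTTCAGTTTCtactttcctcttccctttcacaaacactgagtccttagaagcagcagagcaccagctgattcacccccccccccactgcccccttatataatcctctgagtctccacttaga
Ifit1 and Ifit3 each hold 2 matches there, and Ifit2 holds none, neither here nor in the window of its other annotated start.

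Rsad2 encodes viperin, which makes a chain-terminating nucleotide, and Cmpk2 encodes a mitochondrial kinase that supplies nucleotides. The genes lie on chromosome 12 in opposite orientations. Rsad2 read 5.33, 5.53, 5.70 and 5.68 in the controls and 6.95, 7.11, 6.98 and 7.27 after bleomycin. All bleomycin arrays were above all controls, and Rsad2 rose by 1.52 ± 0.11, or 2.86-fold (adjusted p = 3.14e-05). Cmpk2 read 7.34, 6.99, 7.14 and 7.23 in the controls and 7.19, 7.40, 7.46 and 7.76 after bleomycin. Its groups overlapped, with bleomycin replicate 4 highest, and the difference of 0.28 ± 0.13 did not pass (adjusted p = 0.172). Isg15, which is joined to other proteins as a tag and is also secreted, read 6.29, 6.48, 6.38 and 6.41 in the controls and 7.54, 7.79, 8.11 and 7.55 after bleomycin. Its groups did not overlap, bleomycin replicate 3 was highest, and it rose by 1.36 ± 0.13, or 2.56-fold (adjusted p = 0.00011).

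The same stretches of Isg15, Rsad2 and Cmpk2 are shown for comparison with those of the Ifit genes, with ISRE letters in capitals (Isg15 and Rsad2 on the minus strand, Cmpk2 on the plus strand).
Isg15, chr4:156200819-156200988: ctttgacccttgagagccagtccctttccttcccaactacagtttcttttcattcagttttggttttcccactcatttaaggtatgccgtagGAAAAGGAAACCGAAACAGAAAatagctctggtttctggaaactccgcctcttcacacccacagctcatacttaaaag
Rsad2, chr12:26456453-26456622: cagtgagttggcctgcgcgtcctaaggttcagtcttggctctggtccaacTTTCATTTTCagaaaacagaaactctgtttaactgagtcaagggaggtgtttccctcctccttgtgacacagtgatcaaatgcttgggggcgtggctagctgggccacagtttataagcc
Cmpk2, chr12:26469045-26469214: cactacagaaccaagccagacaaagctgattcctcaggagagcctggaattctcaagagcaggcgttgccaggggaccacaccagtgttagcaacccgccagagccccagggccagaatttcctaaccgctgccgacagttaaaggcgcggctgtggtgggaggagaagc
In Isg15, 3 overlapping matches form a run of 22 bases. Rsad2 holds 1 match and Cmpk2 none.

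**Figure D2:**
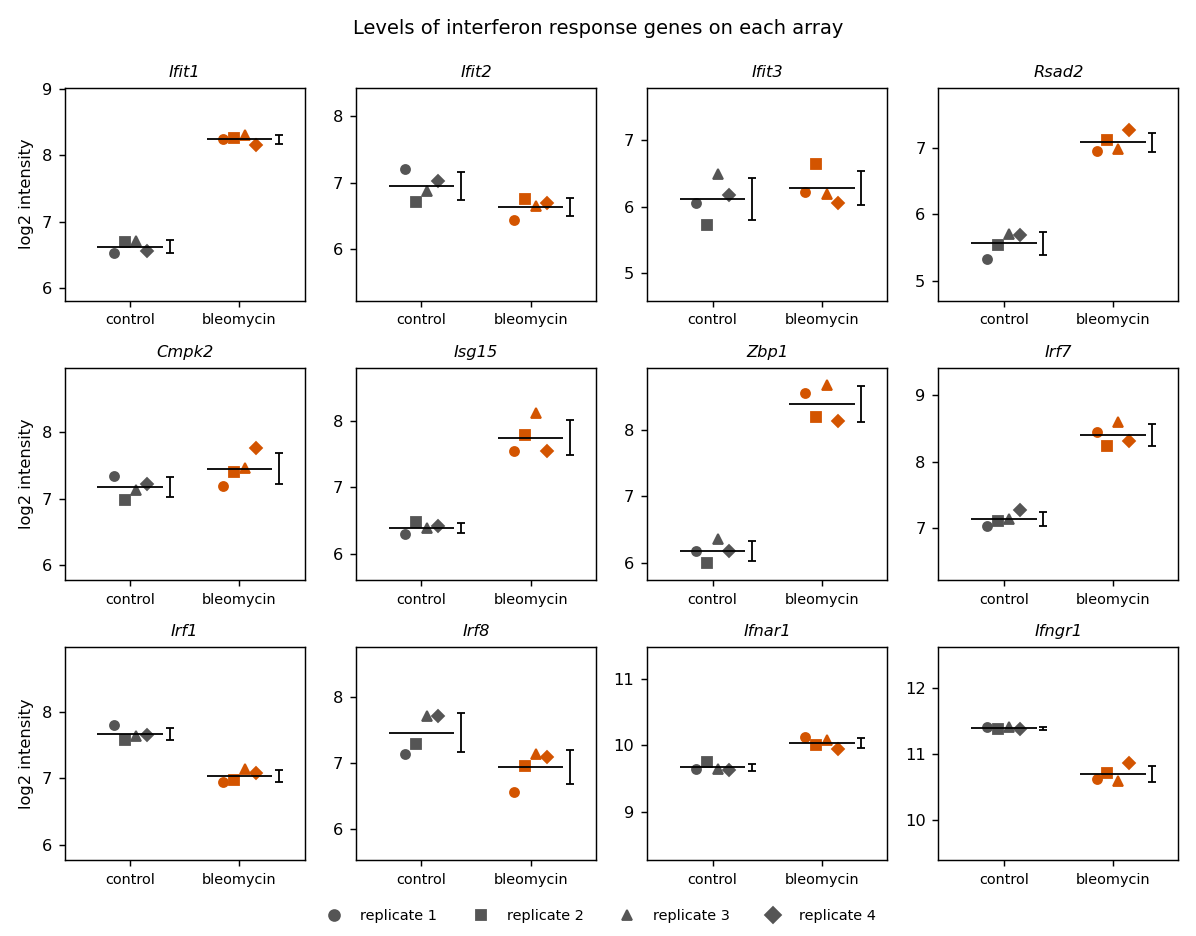
Log2 intensity of 12 of the genes on each array, with control arrays in grey and bleomycin arrays in orange, a marker shape per replicate, a line at the group mean and a bar of 1 SD (n = 4 each). Every panel spans the same range of log2 units. Ifit1, Rsad2, Isg15, Zbp1, Irf7 and Ifnar1 were higher on all bleomycin arrays, Irf1, Irf8 and Ifngr1 were lower on all of them, and Ifit2, Ifit3 and Cmpk2 overlapped.

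Among oligoadenylate synthetases, which make the second messenger that activates RNase L, Oas2 rose and Oas3 did not pass. Oas2 read 5.40, 5.30, 5.88 and 5.85 in the controls and 6.55, 6.45, 6.68 and 6.66 after bleomycin, a rise of 0.98 ± 0.14 (adjusted p = 0.00119). Control replicates 3 and 4 were higher than 1 and 2, and without control replicates 1 and 2 the difference was 0.72. Oas3 differed by 0.03 ± 0.10 (95% interval -0.20 to 0.26). The related genes Oasl1 and Oasl2 rose by 0.70 ± 0.093 and 0.95 ± 0.10 with no overlap. OASL1 is known to hold back translation of Irf7 mRNA in mice.

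Further effectors rose by less than 2-fold. Bst2, or tetherin, which holds budding virions at the cell surface, rose by 0.82 ± 0.13, and Eif2ak2, the kinase PKR that stops translation on double-stranded RNA, by 0.70 ± 0.10. Rtp4, an interferon-induced protein that restricts flaviviruses, rose by 0.66 ± 0.084, and its 4 bleomycin values had an SD of only 0.026. Mx1, a dynamin-like GTPase, rose by 0.68 ± 0.13, but its control mean of 3.72 was lower than the 4.44 to 4.52 at which rows with no annotated gene had their control medians, so its size is uncertain. The guanylate-binding protein gene Gbp3 rose by 0.44 ± 0.081, and Gbp7 read 0.27 ± 0.13 higher without passing (adjusted p = 0.192). Mx2 differed by 0.29 ± 0.13 (adjusted p = 0.167).

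Samhd1 was the effector that fell. It encodes a nucleotide hydrolase that starves reverse transcription, and it read 9.65, 9.66, 9.47 and 9.61 in the controls and 9.23, 9.25, 9.22 and 9.30 after bleomycin. All bleomycin values lay below the controls, with a difference of -0.35 ± 0.081 (adjusted p = 0.0142). Without control replicates 1 and 2 it differed by -0.29 and did not pass (adjusted p = 0.126). Ifitm3, which blocks entry of enveloped viruses, read 11.96, 11.96, 12.07 and 12.03 in the controls and 12.00, 11.90, 12.07 and 12.11 after bleomycin. Its groups overlapped fully, and the 95% interval of its difference was -0.17 to 0.20. The exonuclease gene Isg20 read 8.67, 8.55, 8.47 and 8.63 in the controls and 8.39, 8.51, 8.29 and 8.35 after bleomycin, a difference of -0.19 ± 0.088 that did not pass (adjusted p = 0.164).

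Of the 4 sensors 3 rose, beside 9.12% of all tested genes, and Zbp1 stood far from the others. Zbp1 read 6.17, 5.99, 6.35 and 6.18 in the controls and 8.55, 8.19, 8.68 and 8.13 after bleomycin. The lowest bleomycin value was well above the highest control, and the rise was 4.64-fold (adjusted p = 1.06e-05). Of all 22180 tested genes it ranked 67 by size of rise. The RNA helicases of the RIG-I family moved far less. Ddx58, which encodes RIG-I, rose by 0.31 ± 0.087 (adjusted p = 0.0349) and its regulator Dhx58 by 0.39 ± 0.11 (adjusted p = 0.0283). Ifih1, which encodes the long double-stranded RNA sensor MDA5, differed by 0.11 ± 0.09 (95% interval -0.09 to 0.31).

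The transcription factors moved in opposite directions. Irf7, the factor that amplifies type I interferon output, read 7.03, 7.10, 7.14 and 7.27 in the controls and 8.45, 8.23, 8.60 and 8.31 after bleomycin. Its groups were wide apart, and it rose by 1.26 ± 0.10, or 2.39-fold (adjusted p = 4.95e-05). Irf1, an early factor strongly induced by interferon gamma, read 7.80, 7.58, 7.64 and 7.65 in the controls and 6.94, 6.97, 7.14 and 7.08 after bleomycin. Every bleomycin array was below every control, and Irf1 fell by 0.63 ± 0.089 on the log2 scale (adjusted p = 0.000945).

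The GAS letters, TTC, any 3 bases and GAA in a row, which match alike on either strand, occur once before the first annotated start of Irf1. They are in capitals in the 170 bases before that start (RefSeq, GRCm38.p6, plus strand), shown because this factor fell while most called genes rose.
Irf1, chr11:53769844-53770013: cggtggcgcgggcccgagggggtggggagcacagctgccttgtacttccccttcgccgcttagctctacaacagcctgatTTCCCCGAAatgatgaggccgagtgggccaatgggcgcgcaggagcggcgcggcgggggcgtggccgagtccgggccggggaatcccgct

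Irf8, a factor of myeloid and lymphoid cells, read 7.14, 7.28, 7.71 and 7.70 in the controls and 6.57, 6.96, 7.13 and 7.09 after bleomycin. The groups touched without overlapping, since bleomycin replicate 3 was close to control replicate 1. The difference of -0.52 ± 0.17 missed the threshold (adjusted p = 0.0543) and passed in 9 alternatives, among them without control replicate 1, with quantile normalization and with median centring. The other row of Irf8, which was dimmer, differed by -0.17 (adjusted p = 0.448). Irf9 and Stat2, whose proteins act in the type I response, showed small differences, with Irf9 at 0.11 ± 0.091 (95% interval -0.09 to 0.31) and Stat2 at 0.08 ± 0.14 (95% interval -0.23 to 0.39). Stat2 control replicates 1 and 2, at 7.97 and 8.08, lay below replicates 3 and 4, at 8.46 and 8.41.

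Of the 8 regulators 2 rose and none fell. An unadjusted p under 0.05 was reached by 5, among them Ifi35, which was lower, and by 6772 of all 22180 tested genes. Usp18, which strips ISG15 from proteins and shuts down the type I receptor, read 6.81, 6.56, 6.87 and 6.97 in the controls and 7.48, 7.25, 7.76 and 7.56 after bleomycin. The groups did not overlap, and it rose by 0.71 ± 0.13 (adjusted p = 0.00366). Xaf1, a promoter of apoptosis, rose by 0.30 ± 0.083 (adjusted p = 0.0314). Herc6, the main ligase for ISG15 in mice, differed by 0.03 (95% interval -0.16 to 0.21), and the RIG-I ubiquitin ligase Trim25 by 0.00 (95% interval -0.20 to 0.20). The ADP-ribosyltransferase genes Parp9 and Parp14 showed differences of 0.22 ± 0.09 and -0.05 ± 0.084, neither past the threshold (adjusted p of 0.131 and 0.753). Trim30a, an inhibitor of Toll-like receptor signalling, differed by 0.46 with a wide 95% interval of 0.01 to 0.92, and control replicate 2 was lowest at 4.17. Ifi35 differed by -0.32 ± 0.11 (adjusted p = 0.0664), and its other row by -0.08.

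The receptor genes diverged too. Ifnar1 read 9.64, 9.75, 9.65 and 9.63 in the controls and 10.12, 10.00, 10.08 and 9.94 after bleomycin, with no overlap and a rise of 0.37 ± 0.082 (adjusted p = 0.0115). Ifnar2 read 10.33, 10.33, 10.39 and 10.27 in the controls and 10.06, 10.05, 10.22 and 10.28 after bleomycin. Its groups overlapped through bleomycin replicate 4, and the difference of -0.17 ± 0.087 did not pass (adjusted p = 0.209). Ifngr1, the ligand-binding chain of the interferon gamma receptor, read 11.41, 11.37, 11.41 and 11.37 in the controls and 10.63, 10.72, 10.60 and 10.87 after bleomycin. The controls were almost equal and all bleomycin values were lower, with a fall of 0.68 ± 0.087 on the log2 scale (adjusted p = 0.000564).

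**Figure D3:**
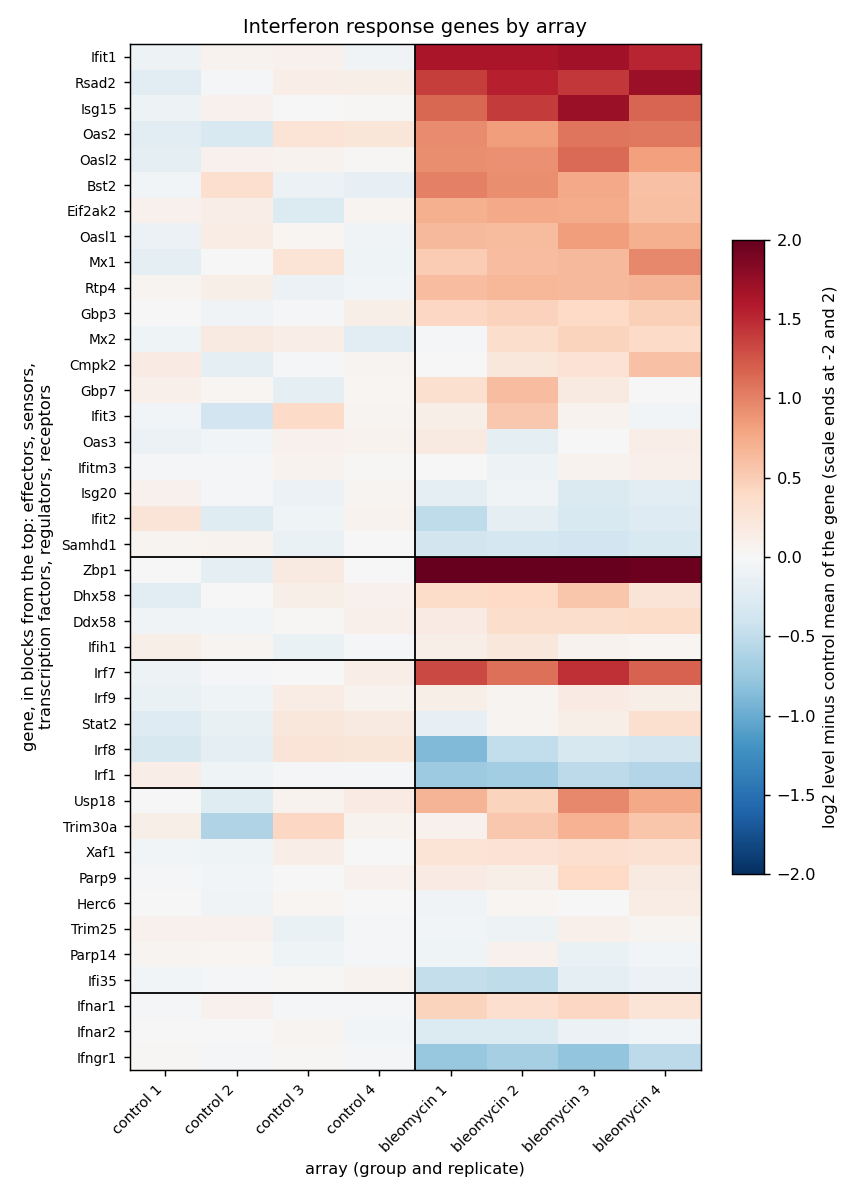
Level of each gene on each array minus the gene's control mean (log2 units, colour scale ending at -2 and 2, which Zbp1 exceeds on bleomycin replicates 1 to 3), in blocks by role from effectors at the top to receptors at the bottom. The rises of Ifit1, Rsad2, Isg15, Zbp1 and Irf7 appear on all 4 bleomycin arrays.

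Effectors were set against sensors, transcription factors and regulators as a single group, with receptors apart. The median log2 difference was 0.55 over the 20 effectors and 0.11 over the 17 others, a gap of 0.44. In the latter group 6 rose and 1 fell, beside 9.12% and 8.24% of all tested genes. The mean level over effectors was 7.02 to 7.08 on the control arrays and 7.53 to 7.61 on the bleomycin arrays. For the sensors and regulators it was 7.18 to 7.35 and 7.47 to 7.66. The gap depended on which role a gene was given, since Oas2, Oas3, Eif2ak2, Oasl1 and Isg15 also sense RNA or regulate the response. With these 5 counted as sensors and regulators the gap was 0.03, and with means in place of medians it was 0.26. No test was made between roles, because genes are not replicates. The count of sensors and regulators that rose was 3 in place of 6 without control replicate 1 or 2, or without bleomycin replicate 2 or 3, where Ddx58, Dhx58 and Xaf1 lost their calls. The count of effectors was 11 in each of the 8 fits without 1 array.

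The wider pathway was described with 98 listed genes, of which 85 were measured. Of these 23 rose and 2 fell, beside 9.12% and 8.24% of all tested genes. The median log2 difference was 0.14, beside 0.03 over all tested genes. Among 11 interferon genes none passed. An unadjusted p under 0.05 was reached by 1 of these 11, beside 6772 of all 22180 tested genes. The differences of the 11 ran from -0.05 to 0.35 with a lowest adjusted p of 0.121. Ifnb1, Ifna2, Ifna11, Ifna12, Ifne and Ifnk had control means of 2.09 to 4.37. Rows without a gene had control medians of 4.44 to 4.52, so a change in these genes could be missed. None of the 3 other receptor chains passed, and 1 reached an unadjusted p under 0.05. Of 4 kinases and STATs Jak2 rose by 0.91 ± 0.13 and Stat3 by 0.25 ± 0.077 (adjusted p of 0.00102 and 0.0491), and none fell. Of 8 feedback inhibitors Socs1, which blocks Janus kinases, rose by 0.55 ± 0.10 and the phosphatase gene Ptpn1 by 0.45, while the STAT inhibitor Pias1 fell by 0.39 on the log2 scale.

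The set of interferon gamma targets, GTPases and others, held 17 genes. None of them fell and 10 rose, beside 8.24% and 9.12% of all tested genes, and the median log2 difference was 0.46. The 7 that did not pass included Cxcl11, Ido1 and Ciita, at 0.07, 0.15 and 0.03, and Gbp4 at -0.23. The name of the set is a label, and which interferon acted was not tested. The T cell chemokine genes Cxcl10 and Cxcl9 rose by 3.13 ± 0.16 and 3.01 ± 0.20, and the GTPase genes Iigp1 and Gbp10 by 1.36 ± 0.11 and 0.79 ± 0.17. These rose in the same samples in which Irf1 and Ifngr1 were lower. Iigp1 read 8.70, 8.85, 8.86 and 9.10 in the controls and 10.28, 10.14, 10.41 and 10.16 after bleomycin, with no overlap. Of 13 sensing and adaptor genes 3 rose, namely the DNA sensor genes Ifi204 and Aim2, by 2.03 and 0.48, and the RNA-editing enzyme gene Adar by 0.29. The control means of Ifi204 and Aim2, at 3.47 and 3.27, were below the medians of the rows without a gene. Gbp6 and Gbp11, among the 10 interferon gamma targets that rose, had control means of 2.11 and 3.16, also below them. Of 29 other interferon-induced genes 6 rose and 1 fell, with a median of 0.08. Oas1g, Phf11d, Lgals3bp and Pml rose by 1.20, 0.81, 0.67 and 0.64, and Ifitm2 fell by 0.36. Oas1g had a control mean of 2.28, also below those medians.

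**Figure D4:**
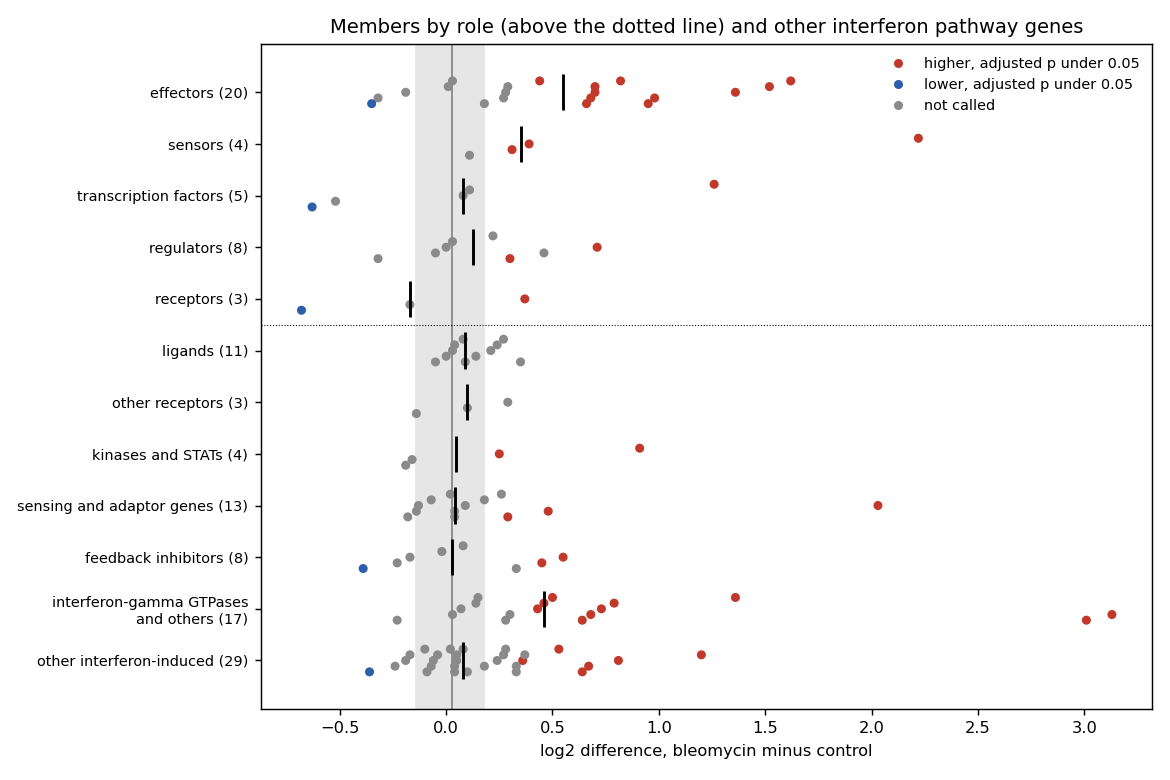
Log2 difference of every measured gene by role (above the dotted line) and by set of other pathway genes (below it), with the number of genes in brackets, a black bar at each median, and the median and middle range (quartiles, -0.14 to 0.18) of all tested genes in grey. The medians of the effectors (0.55), the sensors (0.35) and the interferon gamma targets (0.46) lie to the right of the grey band.

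Promoter windows of 250 bases before to 50 after an annotated start were found by symbol for 32 of the 41 listed genes (RefSeq, GRCm38.p6). The ISRE letters, searched on either strand, were in a window of 14 of these 32 genes, or 43.8%, beside 3.99% of 27025 genes in the same table. They were found for 10 of 16 effectors, 4 of 13 sensors and regulators, and 0 of 3 receptors. The share was 7 of 12 among genes that rose, 7 of 16 among genes that did not pass and 0 of 3 among genes that fell. Zbp1, Oas2, Usp18, Rtp4, Mx1 and Dhx58 rose but had no window, so they are not in these shares. Ifit3 and Oas3 hold matches and did not pass. Irf7, Oasl1 and Oasl2 rose without an ISRE match in the window. The GAS letters were found for 12 of 32 genes, or 37.5%, beside 9.55% of all genes. By call they were found for 3 of 12 genes that rose, 7 of 16 that did not pass and 2 of 3 that fell. In Bst2 and Ifitm3 a GAS match overlaps an ISRE match. A match is a description of letters and no evidence of binding.

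**Figure D5:**
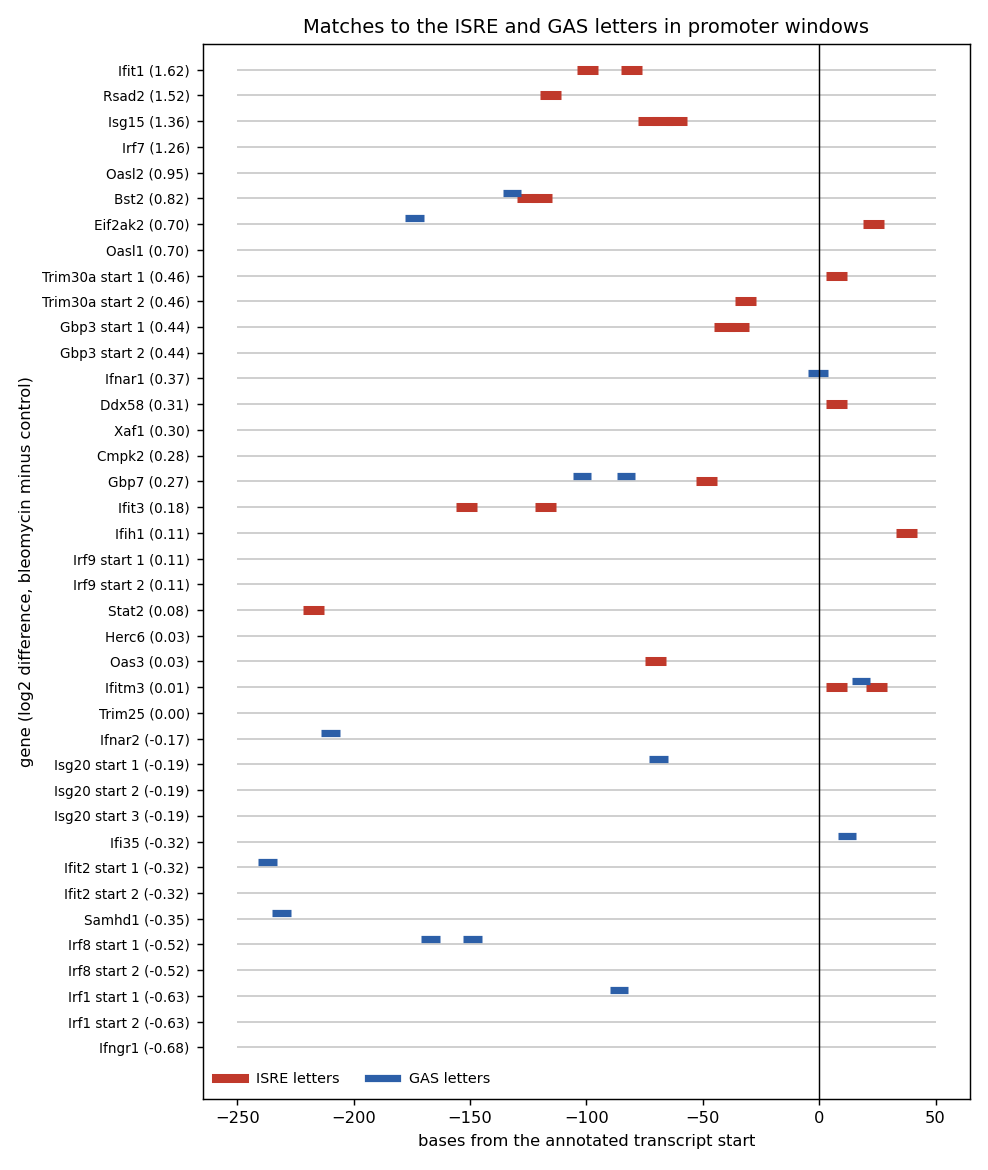
Positions of the ISRE letters (red) and GAS letters (blue) in the promoter windows, in bases from the annotated transcript start, for the measured genes with a window, ordered by log2 difference (in brackets). Genes with several annotated starts have a line for each. Red matches occur among genes that rose, such as Ifit1 (1.62), and among genes that did not pass, such as Ifit3 (0.18) and Oas3 (0.03).

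Markers of other cells moved with the groups. For comparison, 9.12% of all tested genes rose and 8.24% fell. Of 15 macrophage and monocyte markers 11 rose and none fell, and their mean level was 5.78 to 6.09 in the controls and 6.43 to 6.78 after bleomycin. C1qb and Ctss rose most of these, by 2.02 and 1.56. Ly6c2 and Marco, the 2 with negative differences, differed by -0.42 and -0.03 without passing. The 5 general leukocyte markers had means of 6.41 to 6.96 and 6.56 to 6.90, and none passed. Among them 2 reached an unadjusted p under 0.05 in opposite directions, Ptprc, which encodes CD45, at -0.48 and Itgb2 at 0.40. Over all 22180 tested genes, 6772 reached it. The 6 markers of plasmacytoid dendritic cells, which make much type I interferon, stood at 4.59 to 4.75 and 4.52 to 4.71, with none at an unadjusted p under 0.05. Of 9 alveolar epithelial markers 8 fell, from 8.52 to 9.41 down to 6.77 to 7.71, and of 10 blood endothelial markers 8 fell, from 8.04 to 9.14 down to 7.10 to 7.68. Of 4 airway markers 3 fell, from 8.01 to 8.70 down to 5.92 to 7.06. Of 4 B cell markers Cd79a and Cd79b fell, and the list ran from 5.33 to 5.83 in the controls and from 5.01 to 5.21 after bleomycin. Of 9 T and NK cell markers only Gzma passed, with a fall of 0.82 on the log2 scale, and the list stood at 4.73 to 4.99 and 4.45 to 4.76. Of the 9 differences 6 were negative, and the 3 positive ones were Cd3e, Cd3g and Cd3d at 0.19, 0.17 and 0.11. Irf8, which did not pass, differed by -0.52 in the same samples. Of 10 mesenchymal markers 7 rose and 2 fell, and the mean ran from 10.48 to 10.71 and from 11.13 to 11.37. No marker is at 0 on this scale, but 0 is not its background. Rows without a gene had medians of 4.44 to 4.52 in the controls and 4.2 to 4.35 after bleomycin. The plasmacytoid and the T and NK lists lay little above those medians. In the controls Sftpc, Scgb1a1 and Cdh5 had means of 12.08, 11.68 and 10.69, and Epcam 4.99, beside 11.94 for Col1a1. In such bulk samples fewer cells of a type and less RNA per cell cannot be told apart. The part of macrophage, lymphocyte, epithelial and endothelial RNA in the interferon gene results was not tested.

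The epithelial and endothelial markers were higher in control replicates 1 and 2 than in 3 and 4. Without those controls 12 of the genes rose and 3 fell, and Zbp1, Ifit1, Rsad2, Isg15 and Irf7 still differed by 2.12, 1.61, 1.39, 1.35 and 1.19 (adjusted p at most 0.00355). Irf1 and Ifngr1 differed by -0.61 and -0.68 there (adjusted p of 0.0125 and 0.0107). The other gene that fell there was Irf8, at -0.77 (adjusted p = 0.0242), while Samhd1 did not pass (adjusted p = 0.126). Within replicates 1 and 2 alone, 10 rose and 2 fell, and within replicates 3 and 4 alone, 11 rose and none fell, where 3 lower genes had an unadjusted p under 0.05. Zbp1, Ifit1, Rsad2, Isg15, Irf7, Oas2, Oasl2 and Bst2 passed in each of these 3 subsets.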

How the data were processed

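Total RNA of sorted lung mesenchymal cells, 100 ng per sample, was labelled as biotinylated cRNA and hybridised to 1-colour oligonucleotide arrays, per the labels' protocols. The deposited values are 1 number per row and array, read here as log2 intensities from their range, 0.24 to 13.58, since no scale is named. How the authors corrected background and normalized is not stated in the sources used here. Values were used as deposited, and the array medians over tested genes differed by at most 0.071. Of 41345 rows, 23521 had 1 gene, 1814 several and 16010 none in the probe annotation. Genes were represented by their brightest row.

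Groups and replicate numbers came from the sample titles. Bleomycin was compared with control by limma 3.58.1 (lmFit, eBayes, two-sided, under R 4.3.3), Benjamini-Hochberg adjusted over 22180 genes, threshold 0.05, and the test was tested on simulated data. Arrays have no depth, and their number limits the precision. The genes, roles, lists and most alternatives were chosen with earlier results of these data known. Among the 40 genes, per-array values are given for calls over 1 in log2 units, genes that fell, receptors and several others, and from each pathway set up to 4 called genes a direction are named. The per-array values of Ifit2, Ifit3, Cmpk2, Oas2, Isg20, Usp18, Irf8, Iigp1 and, in part, Stat2 and Trim30a were added after their values were seen. Alternatives covered blocks, subsets of arrays, scaling, dim genes (30% or 50%), choice of row, the variance model and a threshold of 0.01. Promoter sequences came from RefSeq, and figures were drawn with matplotlib 3.10.9.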

Additional observations from a re-analysis of the deposited data

Results flagged for a closer look

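Over 114 groups of 4 arrays (the 40 genes and 17 named pathway genes, each in both groups), 2 held a value far from the other 3, and chance gives about 1 in 20. Ddx58 read 8.04 on bleomycin replicate 1 and 8.23 to 8.25 on the other bleomycin arrays. Ifnar1 read 9.75 on control replicate 2 and 9.63 to 9.65 on the other controls.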

How the results depend on the processing

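No called gene changed direction under any alternative. Of the 21 called genes 18 kept their call in all 8 fits without 1 array, and the exceptions were Ddx58, Dhx58 and Xaf1. Leaving out 1 array gave 15 to 17 genes that rose, 3 to 4 that fell, 3 to 5 sensors and regulators that rose, an effector gap of 0.36 to 0.43, and 16 to 21 pathway genes higher and 1 to 2 lower. The counts of all genes higher and all genes lower ran from 1497 to 1987 and from 1306 to 1883. Genes that fell numbered 5 with the 2 pairs of replicate numbers (1 and 2, 3 and 4) as blocks, with median centring, without the dimmest 50% or 30% and with a trended, robust eBayes, where Irf8 and Ifi35 joined the other three. Replicates 1 and 2 alone gave 10 genes higher, 2 sensors and regulators higher (median 0.19, gap 0.36), 8 pathway genes higher and 0 lower (6 lower at an unadjusted p under 0.05 by limma), and 838 genes higher and 833 lower in all. Replicates 3 and 4 alone gave 11 higher and 0 lower (3 at an unadjusted p under 0.05), 3 sensors and regulators, 9 pathway genes higher and 0 lower (2 at an unadjusted p under 0.05), and 503 and 220 in all. These subsets hold fewer arrays. Without control replicates 1 and 2 there were 3 sensors and regulators higher, a gap of 0.33, 0 pathway genes lower (3 at an unadjusted p under 0.05), and 1205 and 992 genes in all. A threshold of 0.01 gave 3 sensors and regulators higher, 14 pathway genes higher and 0 lower, and 1079 and 879 in all. Without the dimmest 30%, the effector median was 0.44 and the gap 0.33. The gap was 0.26 with means and 0.03 with 5 genes of both roles moved. The shorter letters GAAANNGAA gave a promoter share of 46.9%. Median centring gave 1623 higher and 2314 lower over all genes, or 41.2% higher among calls against 52.5% as deposited, and 16 and 5 for the interferon genes.

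The replicate numbers were not taken as pairs. Deviations of same-numbered arrays correlated at 0.129, 0.063, 0.114 and 0.065, and control replicate 2 correlated best with bleomycin replicate 1. Within replicates 1 and 2, and within 3 and 4, every correlation between the groups was positive, at 0.063 to 0.129. Across these pairs of numbers every correlation was negative, at -0.140 to -0.067. Replicates 1 and 2 thus differed from 3 and 4 in a way that both groups shared. The source of this split was not tested. With the replicate block 18 genes rose and 4 fell, all 21 called genes kept their call, Irf8 passed (adjusted p = 0.0104), and 1 pathway gene was lower. Signal near background limits Mx1 and, in the wider pathway, genes such as Ifnb1, Ifi204, Aim2 and Oas1g.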
